A study of Mus musculus with 8 samples.

Results

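The response of B16F1 melanoma tumours to a single 20 Gy X-ray dose was examined in hosts that lack both tumour necrosis factor (TNF) receptors. The comparison used 4 of the 8 arrays of the series, 2 of an irradiated pool and 2 of an untreated pool, chosen by their titles. B16F1 is a cell line from a C57BL/6 mouse melanoma. The cells were implanted under the skin of the right hind limb of TNFR 1, 2 -/- mice aged 8 to 12 weeks, bred from B6;129S-Tnfrsf1a tm1Imx Tnfrsf1b tm1Imx/J pairs. The host strain is labelled C57BL/6, so the 129S share of the host genome is not settled by the labels. Both groups carried the same receptor deletions. Per the labels, 5 to 7 mice received cells, and tumours had reached 268 to 478 mm3 when animals were allotted to treatment. Only the limb with the tumour was exposed, and tumours were taken 5 h later. Whether the untreated mice were restrained like the irradiated ones is not stated. The number of tumours in each pool is not given in the sources used here.

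The deletion was in the host, and the implanted melanoma cells carried their own receptor genes. Total RNA from the whole tumours of a group was pooled by amount and the pool was hybridised to 2 Affymetrix Mouse Genome 430 2.0 arrays. Each array is an in situ synthesised oligonucleotide array that reports one signal per probe set. The 2 arrays of a group are therefore technical repeats of 1 pool. Every p-value below sets the difference between the 2 pools against array error and says nothing about the spread between animals.

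Ionising radiation breaks DNA, and the kinase ATM then stabilises the transcription factor p53. p53 activates genes that stop the cell cycle, promote apoptosis and limit its own activity, while many genes of late cell division are repressed by way of p21 and the DREAM complex. Radiation is also a known inducer of immediate-early transcription factors such as the Fos and Jun proteins, and, in many tissues, of NF-kB targets downstream of TNF. TNF signals through the receptor TNFR1, encoded by Tnfrsf1a, and the receptor TNFR2, encoded by Tnfrsf1b.

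The arrays held 45037 non-control probe sets, and 18193 genes were each represented by the brightest probe set that names no other gene. Signals are the deposited MAS5 intensities. Differences are irradiated minus untreated on the log2(signal + 16) scale, with the limma standard error (SE), and folds are on that scale. A gene is called when limma gave a Benjamini-Hochberg adjusted p under 0.05 over all non-control probe sets and the difference was at least 2-fold. The log2 signals of the 2 untreated arrays correlated at 0.980 and those of the irradiated arrays at 0.977, against 0.971 to 0.972 between pools. Among probe sets at or above the median signal, 0.724% of untreated and 1.15% of irradiated duplicates differed by 2-fold. The 18S ribosomal RNA control probe sets averaged 546.8 and 510.5 in the untreated arrays and 932.3 and 955.8 in the irradiated arrays, a ratio of 1.79. The 5′ to 3′ ratio of actin lay between 0.785 and 0.803 on the 4 arrays. The part of the 18S difference in the results was not tested.

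In all, 120 genes were called higher (0.66% of genes tested) and 68 lower (0.374%). By probe set, 227 were higher (0.504% of 45037) and 168 lower (0.373%). The largest rise, 3.83, was in the clone-named gene 1700007K13Rik, which is outside the naming rule and was picked after its value was seen. Next came the globin Hbb-b2, the RNA-binding protein Celf5, the phospholipase Plch2, the erythroid haem enzyme Alas2, the heat shock protein gene Hspa1b and the AP-1 subunit Fosb. On this scale the largest falls were in the keratins Krt14, Krt6b, Krt1 and Krt16 and in the epidermal calmodulin Calm4. Among the rises, Celf5 was not called without irradiated replicate 1 (3.43) or 2 (3.34), and Plch2 was called only without irradiated replicate 2 (3.25). Among the falls, Krt14 (-4.27 and -4.47), Krt1 (-2.95 and -2.95), Krt16 (-2.60 and -2.83) and Calm4 (-3.08 and -3.43) were not called without untreated replicate 1 or 2, and Krt6b not without untreated replicate 2 (-3.77). Leaving out either untreated array cut the lower genes from 68 to 6 and 9, against 54 and 56 higher. Without irradiated replicate 1 the counts were 72 higher and 33 lower, and without irradiated replicate 2 they were 72 and 42. All 188 called genes kept their sign in each of these 4 fits, and 165 stayed at least 2-fold. The call rule itself makes a change of sign unlikely, so the kept signs are no separate evidence. The calls rest on a variance prior that follows the signal: with a constant prior limma called no gene, while 1487 genes were higher and 1690 lower at an unadjusted p under 0.05.

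**Figure D1:**
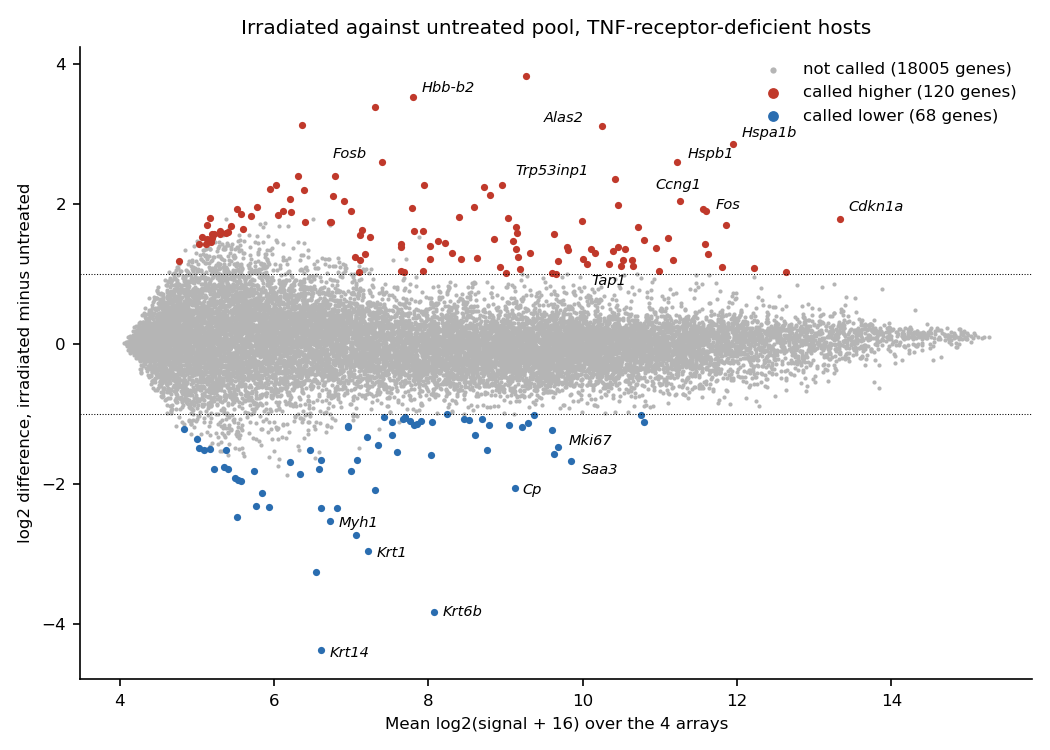
Each point is a gene, with its mean log2(signal + 16) over the 4 arrays on the horizontal axis and the log2 difference, irradiated minus untreated, on the vertical axis. Dotted lines mark the 2-fold limits. The 120 genes called higher are red and the 68 called lower are blue, with Hbb-b2 at 3.54, Alas2 at 3.12, Cdkn1a at 1.79 and Krt14 at -4.37.

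The receptor genes were read first. For Tnfrsf1a the signals were 3278.9 and 3539.4 in the untreated arrays and 4339.6 and 4053.0 in the irradiated arrays. The groups did not overlap, and the difference of 0.30 ± 0.06 (adjusted p = 0.0342) was under 2-fold. These signals come from whole tumours that hold receptor-competent melanoma cells, so they do not check the deletion in the host, and where the probe set lies relative to the deleted part was not examined. Tnfrsf1b was at 127.6 and 127.3 in the untreated and 108 and 147 in the irradiated arrays, which overlapped. Tnf itself was dim, at 12.6 and 15.3 against 11.8 and 15.9. The melanocyte genes were bright in both pools: Dct, the pigment enzyme dopachrome tautomerase, stood at 32313.5 and 34085.9 in the untreated and 35522.4 and 32645.1 in the irradiated arrays. None of 19 melanocyte genes was called by limma, with 2 higher and 4 lower at an unadjusted p under 0.05, a limit that 13.1% of all genes passed as higher and 14.6% as lower. At the adjusted p 4 passed as lower and none as higher, where 6.53% and 4.92% of all genes did. The differences of the 19 genes ran from -0.30 to 0.18 with a median of -0.04. After quantile normalization 16 of them were negative and the median was -0.10.

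Of 66 genes in 3 lists of p53 targets, 23 were called higher and none lower, against 0.66% and 0.374% of all genes, and 51 had a positive difference. At the adjusted p alone 33 passed as higher and none as lower, where 4.92% of all genes passed as higher. Those 33 became 20 without untreated replicate 1, 21 without untreated replicate 2, 27 without irradiated replicate 1 and 25 without irradiated replicate 2. The median over the 66 genes was 0.48, beside 0.02 over all genes. By the full rule the count called without one array was between 18 and 22, and 18 genes were called in all 4 such fits. Averaging all probe sets of a gene left 17 called.

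Cell-cycle arrest and feedback genes gave 12 of 27 called higher. Cdkn1a, which encodes the cyclin-dependent kinase inhibitor p21, was at 5479.5 and 5619.0 in the untreated arrays and at 19738.5 and 18700.8 in the irradiated arrays. It rose 3.46-fold (1.79 ± 0.05, adjusted p = 3.61e-05), and both irradiated arrays lay far above both untreated ones. Ccng1, which encodes cyclin G1, went from 1243.1 and 1150.2 to 4726.5 and 5218.1, a rise of 2.04 ± 0.07, and its other 2 probe sets were called higher as well. Trp53inp1, a p53-induced nuclear protein of stress and autophagy, was at 597.1 and 582.4 in the untreated and at 3088.9 and 3074.1 in the irradiated arrays, the largest rise in the 3 lists (2.35 ± 0.06). Its dimmer probe set gave 0.94 and was not called (adjusted p = 0.125).

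Mdm2, the ubiquitin ligase that removes p53, was at 581.7 and 492.4 in the untreated arrays and at 1844.7 and 1101.3 in the irradiated arrays. The groups did not overlap, but the 2 irradiated arrays were far apart, and the rise of 1.39 ± 0.22 (adjusted p = 0.0172) was not called without untreated replicate 1 (1.5) or untreated replicate 2 (1.27). Btg2, an antiproliferative factor, went from 180.9 and 244.0 to 1292.0 and 890.3 (2.27 ± 0.20), and its call likewise ended without untreated replicate 1 (2.07) or 2 (2.47). The pleckstrin-homology protein Phlda3, an inhibitor of Akt, rose from 2024.6 and 2062.1 to 6798.4 and 6610.8. Dcxr, Plk2, Gtse1, Ptp4a3, Ak1 and Zmat3 also rose, by 1.05 to 1.93. The phosphatase gene Ppm1d, which ends the damage signal, differed by 0.71 and was under 2-fold. Gadd45a was at 165.6 and 196.2 against 257.7 and 199.2, a difference of 0.31 (adjusted p = 0.433).

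The promoters of Cdkn1a, Ccng1 and Mdm2 are shown because these genes define the p53 response and each window holds a decamer that matches the p53 half-site. Windows run from 250 bases before to 50 bases after the annotated start and are from RefSeq on GRCm38.p6. They are written 5′ to 3′ in the direction of the gene, with the decamers in capitals. Cdkn1a lies on the plus strand at chr17:29090729-29091028, Ccng1 on the minus strand at chr11:40755237-40755536 and Mdm2 on the minus strand at chr10:117710709-117711008.
Cdkn1a: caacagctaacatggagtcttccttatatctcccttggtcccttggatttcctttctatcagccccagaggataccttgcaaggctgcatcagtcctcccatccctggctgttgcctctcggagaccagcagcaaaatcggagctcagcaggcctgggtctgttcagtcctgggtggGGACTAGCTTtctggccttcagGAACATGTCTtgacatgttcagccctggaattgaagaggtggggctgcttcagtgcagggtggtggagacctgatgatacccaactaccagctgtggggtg
Ccng1: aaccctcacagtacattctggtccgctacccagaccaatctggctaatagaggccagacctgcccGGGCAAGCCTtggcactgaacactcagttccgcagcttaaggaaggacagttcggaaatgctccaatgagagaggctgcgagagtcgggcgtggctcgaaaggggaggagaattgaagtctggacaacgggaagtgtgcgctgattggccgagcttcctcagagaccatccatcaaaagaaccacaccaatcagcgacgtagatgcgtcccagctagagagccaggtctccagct
Mdm2: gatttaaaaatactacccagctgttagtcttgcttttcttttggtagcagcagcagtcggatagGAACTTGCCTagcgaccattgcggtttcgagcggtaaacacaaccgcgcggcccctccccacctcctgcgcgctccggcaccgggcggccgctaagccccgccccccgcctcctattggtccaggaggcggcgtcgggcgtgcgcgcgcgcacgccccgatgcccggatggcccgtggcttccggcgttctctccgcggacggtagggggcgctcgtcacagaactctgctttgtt
The Cdkn1a window had 2 such decamers and the other windows 1 each. A decamer was present on either strand in 6 of 19 called p53 targets with a promoter (31.6%), in 7 of 37 that were not called (18.9%) and in 8.59% of the 14452 genes on the array with a promoter. This motif was added after the data were seen. The match describes letters only, and the absence of a match in the other windows says nothing on binding elsewhere.

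Of 16 p53 targets of apoptosis, 5 were called higher. Aen, a nuclease of apoptosis, went from 1247.4 and 1326.4 to 3788.6 and 3626.4 (1.52 ± 0.06). Pidd1, the death-domain protein that activates caspase-2, was at 284.4 and 342.4 in the untreated and 900.0 and 897.5 in the irradiated arrays (1.48 ± 0.11). Both genes had irradiated arrays well clear of the untreated ones. Bbc3, which encodes the BH3-only protein PUMA, rose from 286.1 and 389.2 to 815.8 and 952.7 (1.36 ± 0.16), but was not called without untreated replicate 1 (1.15) or irradiated replicate 2 (1.25). Siva1, a proapoptotic protein that binds CD27, rose by 1.03 ± 0.04. Tnfrsf10b, the mouse TRAIL receptor and itself a TNF-receptor family member, was called at 1.04 ± 0.23 (adjusted p = 0.0475) from signals of 85.8 and 74.2 against 191.9 and 169.5. That call was lost whichever array was left out, with differences from 0.95 to 1.12. Fas and Pmaip1 were dim, with irradiated arrays that disagreed: Fas was at 64.7 and 12.0 and Pmaip1, which encodes NOXA, at 33.0 and 7.6.

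Repair and metabolic targets gave 6 of 23 called higher, or 4 when all probe sets of a gene were averaged. Sesn2, which encodes the stress sensor sestrin 2, was at 649.2 and 731.0 in the untreated arrays and at 2814.6 and 2749.3 in the irradiated arrays, a 3.97-fold rise (1.99 ± 0.07). The brain-type carnitine palmitoyltransferase Cpt1c, the thiamine transporter Slc19a2, the peptide transporter Tap1 and Psrc1 also rose, by 1.09 to 1.38. The excision-repair nuclease Ercc5 rose by 1.22 ± 0.13, yet was called only when irradiated replicate 2 was the array left out (1.32), and gave 1.30, 1.13 and 1.11 without the others. The damage-recognition genes Xpc and Ddb2 differed by -0.17 and 0.06 (adjusted p = 0.424 and 0.908), with overlapping arrays for Ddb2 at 315.4 and 213.2 against 284.8 and 258.2. Rrm2b, a p53-induced ribonucleotide reductase subunit, differed by 0.21 (adjusted p = 0.392).

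**Figure D2:**
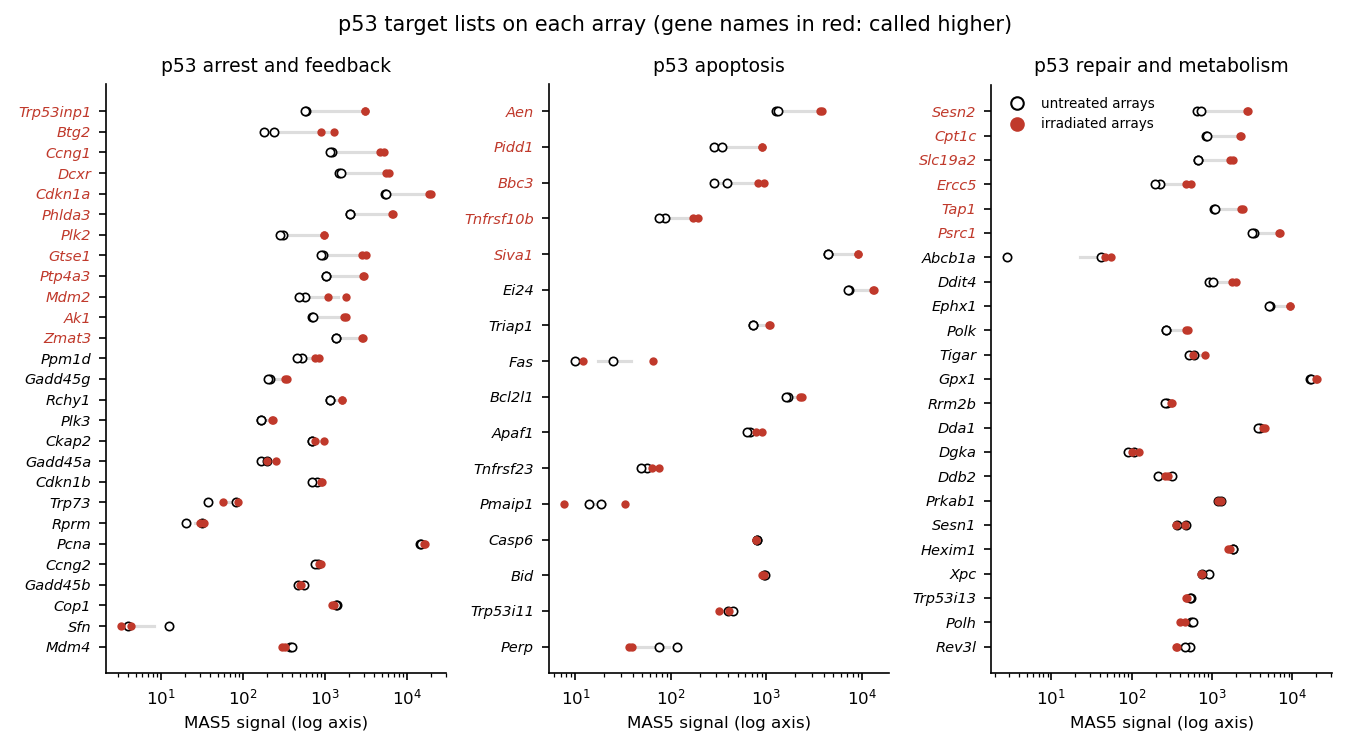
Signals of every matched gene in the 3 p53 target lists, on a log axis, with open circles for the 2 untreated arrays and filled red circles for the 2 irradiated arrays. Names in red are called higher: 12 of 27, 5 of 16 and 6 of 23 genes from left to right. In every red-named gene both irradiated arrays lie above both untreated arrays, which the call rule itself favours.

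Immediate-early genes had mostly positive differences (27 of 35, with a median of 0.40). Of 35 AP-1 and immediate-early genes, 4 were called higher and none lower, against 0.66% and 0.374% of all genes. At the adjusted p alone 17 passed as higher and 3 as lower, against 4.92% and 6.53%. Fos went from 1553.9 and 1605.7 to 5974.9 and 5940.3, a 3.74-fold rise (1.90 ± 0.05, adjusted p = 3.38e-05). Fosb was at 48.9 and 56.5 in the untreated and at 390.7 and 413.0 in the irradiated arrays (2.61 ± 0.19). The irradiated arrays of both AP-1 subunits were tightly grouped and well above the untreated ones. Ccn1, a secreted matricellular protein, rose by 1.38 ± 0.05, with its 3 other probe sets also called higher. Jun rose by 1.15 ± 0.07, while its other probe set gave 0.52. Atf3 and Egr1 had differences of 0.96 and 0.81, under 2-fold. After quantile normalization Atf3 was called higher (1.015 ± 0.08, adjusted p = 0.00207). Myc, at 1791.3 and 1738.8 against 1167.6 and 1082.2, and the nuclear receptor Nr4a3 had negative differences, of -0.64 and -0.72, also under 2-fold. The 4 calls were kept in every fit that left out one array. The passes at the adjusted p alone dropped from 17 to 5 without untreated replicate 1, 4 without untreated replicate 2, and 11 and 14 without the irradiated replicates, and the 3 lower passes dropped to 0 without either untreated replicate.

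Among 25 heat shock chaperone genes, 3 were called higher and none lower, against 0.66% and 0.374% of all genes. The median of the list was 0.11, and 11 genes had negative differences. At the adjusted p alone 6 passed as higher and 4 as lower, where 4.92% and 6.53% of all genes did. Hspa1b, an inducible HSP70 gene, was at 1583.1 and 1325.0 in the untreated arrays and at 10752.9 and 10554.4 in the irradiated arrays, a 7.29-fold rise (2.87 ± 0.08). Hspb1, the small heat shock protein HSP25, went from 972.6 and 935.5 to 6051.6 and 5709.1 (2.60 ± 0.06). Hspa1a, the neighbouring copy of Hspa1b, rose from 190.0 and 169.0 to 673.6 and 816.4 (1.96 ± 0.13). Probes of the near-identical Hspa1a and Hspa1b can share signal, so the share of each is uncertain. The co-chaperone Dnajb1 had signals of 3372.6 and 3445.2 against 6722.8 and 6566.5 and fell short of 2-fold at 0.96. When all probe sets of a gene were averaged, Dnajb1 was called at 1.16 ± 0.04 (adjusted p = 0.00049), and the list held 4 calls. The 3 calls of the main fit were kept whichever array was left out.

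The windows of Hspa1b and Hspb1 are shown because they belong to the largest rises in the list. They are from RefSeq on GRCm38.p6, 5′ to 3′ in the direction of the gene, with each match to the heat shock element core GAANNTTC in capitals. The motif is its own reverse complement, so a match holds for both strands, and its first bases can be shared with a TTTGAA match. Hspa1b lies on the minus strand at chr17:34959189-34959488 and Hspb1 on the plus strand at chr5:135887669-135887968.
Hspa1b: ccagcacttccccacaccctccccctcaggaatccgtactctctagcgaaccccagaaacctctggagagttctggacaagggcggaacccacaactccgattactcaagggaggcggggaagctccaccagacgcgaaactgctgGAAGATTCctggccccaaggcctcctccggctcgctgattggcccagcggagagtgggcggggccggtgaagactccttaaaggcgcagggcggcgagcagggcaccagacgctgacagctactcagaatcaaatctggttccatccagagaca
Hspb1: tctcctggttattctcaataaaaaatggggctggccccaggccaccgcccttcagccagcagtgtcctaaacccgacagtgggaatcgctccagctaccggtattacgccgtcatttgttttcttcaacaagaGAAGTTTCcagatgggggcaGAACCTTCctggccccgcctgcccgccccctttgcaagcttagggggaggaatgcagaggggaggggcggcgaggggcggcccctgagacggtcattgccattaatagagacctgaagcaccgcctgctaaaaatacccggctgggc
Hspb1 had 2 matches and Hspa1b 1, and the Hspa1a window differed from that of Hspa1b at 4 of 300 bases. The core was found in all 3 called genes, in 54.5% of the 22 list genes with a promoter and in 7.6% of genes on the array with a promoter. Most chaperones with the core were thus not called. Stress genes of the endoplasmic reticulum had mostly negative differences. Of 28 unfolded-protein and integrated-stress genes, 6 passed the adjusted p as higher and 11 as lower, where 4.92% and 6.53% of all genes did. Without untreated replicate 1 or 2 these counts were 1 and 0, and without irradiated replicate 1 or 2 they were 2 and 4. The only call was Sesn2, shared with the p53 lists. Hspa5, which encodes the chaperone BiP, was at 16914.9 and 16813.2 against 11810.5 and 11415.6 (-0.54 ± 0.04), and the stress sensor Ern1 differed by -0.81, both under 2-fold. Of 22 NRF2 targets, Hmox1 (haem oxygenase 1) alone was called, where 0.66% of all genes were called higher. It went from 841.4 and 824.0 to 2066.1 and 2162.3 (1.33 ± 0.06).

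**Figure D3:**
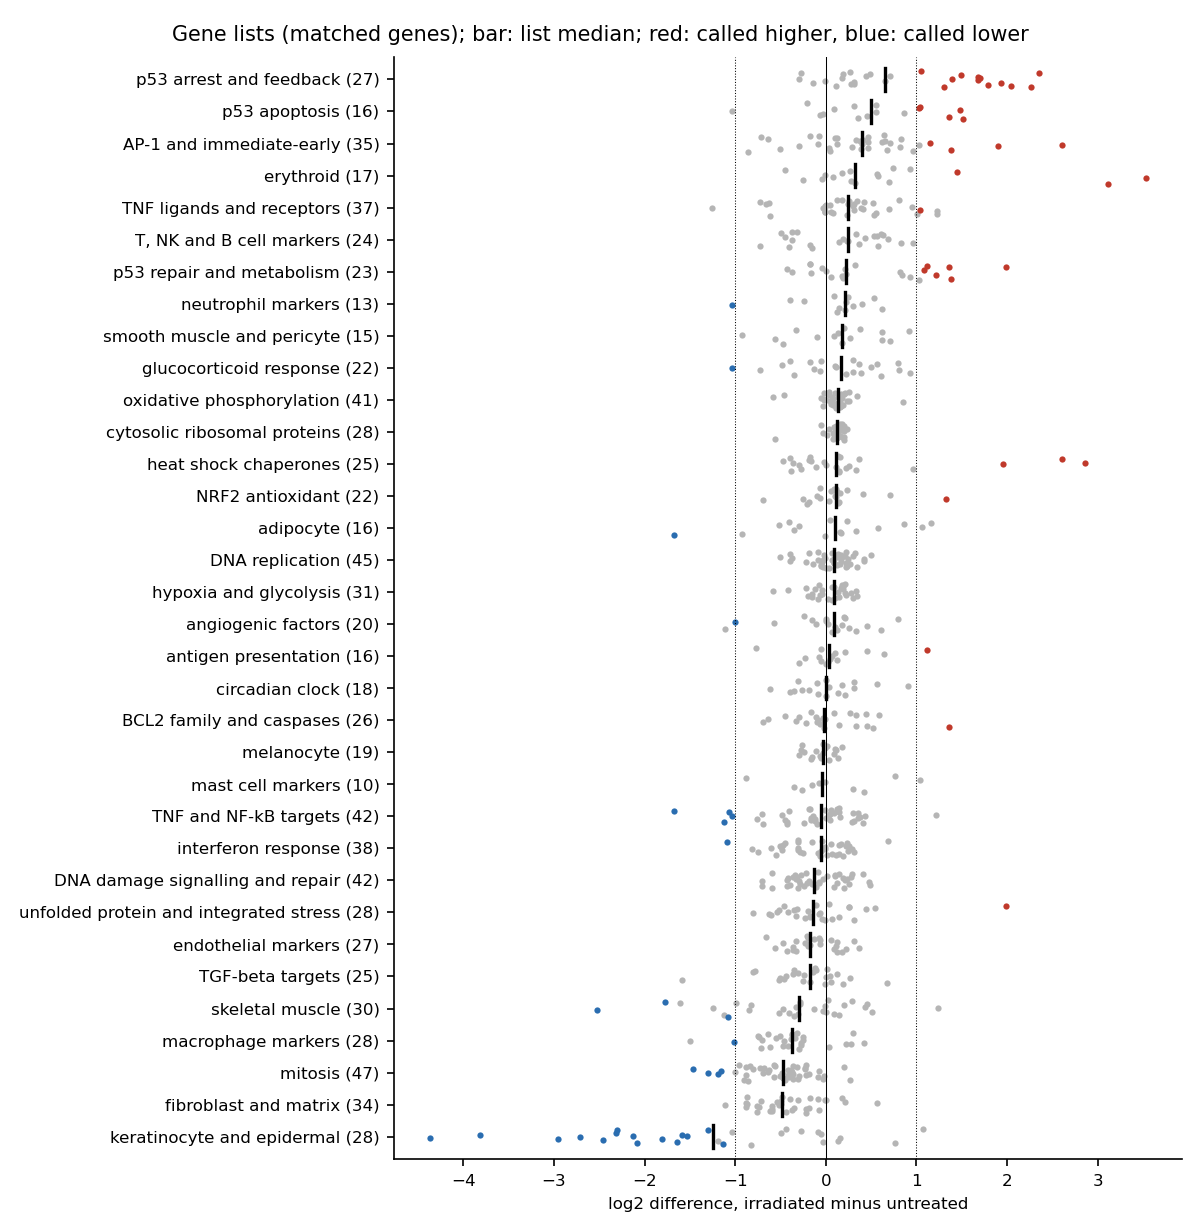
Log2 difference, irradiated minus untreated, of every matched gene in 34 gene lists ordered by their median (black bar), with the number of matched genes in brackets. Red points are called higher, blue points called lower and grey points not called. The p53 arrest list has the highest median, at 0.65, and the keratinocyte list the lowest, at -1.24.

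Most genes of mitosis had lower signals in the irradiated pool, and no gene of DNA replication was called. Of 47 mitosis genes, 45 had a negative difference under the authors' scaling, quantile normalization and median centring alike, with a median of -0.48. Of these, 4 were called lower, against 0.374% of all genes, and none higher. At the adjusted p alone 28 passed as lower and 1 as higher, where 6.53% of all genes passed as lower. That 28 became 3 without untreated replicate 1, 3 without untreated replicate 2, 18 without irradiated replicate 1 and 20 without irradiated replicate 2. Averaging all probe sets of a gene left 15 lower passes, 1 of them called, and 43 negative differences.

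Mki67, the proliferation antigen Ki-67, was at 1257.8 and 1444.9 in the untreated arrays and at 483.8 and 469.0 in the irradiated arrays. It fell by 1.47 ± 0.09 on the log2 scale (adjusted p = 0.00089), a call kept whichever array was left out. Hmmr, a spindle-associated hyaluronan receptor, fell by 1.30 ± 0.10 from 596.0 and 597.5 to 242.2 and 224.0. Another 3 of its probe sets gave -0.52 to -0.62 and were not called. Cenpf, a kinetochore protein, went from 846.9 and 906.0 to 355.4 and 397.7 (-1.19 ± 0.09), while another of its probe sets gave 0.40 and was not called. Kif23, a kinesin of cytokinesis, was at 572.1 and 722.0 against 274.9 and 283.1 (-1.16 ± 0.13). The calls on Hmmr and Cenpf ended without untreated replicate 1 (-1.30 and -1.23) or untreated replicate 2 (-1.30 and -1.14), and Kif23 was called only with irradiated replicate 2 left out (-1.18).

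Other division genes had negative differences under 2-fold. Top2a, the topoisomerase of chromosome condensation, was at 4504.4 and 4692.1 against 2604.8 and 2518.5 (-0.84), and the kinase Plk1 at 3307.9 and 3408.8 against 2089.8 and 2076.0 (-0.68). Cdk1 differed by -0.22, and Aurkb (0.27) and Pttg1 (0.20) were the only genes with positive differences. Of 45 replication genes, limma called none, with 14 higher and 6 lower at an unadjusted p under 0.05 (13.1% and 14.6% of all genes). At the adjusted p 8 passed as higher and 4 as lower (4.92% and 6.53% of all genes), and the list median was 0.10. The helicase subunit Mcm5 was at 9165.8 and 9143.5 against 12313.8 and 12274.3 (0.42), the licensing factor Cdt1 differed by 0.35 and the clamp-loader subunit Rfc5 by 0.49. All 12 passes were lost without untreated replicate 1 or 2, 1 higher and 1 lower remained without irradiated replicate 1, and 3 higher without irradiated replicate 2.

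**Figure D4:**
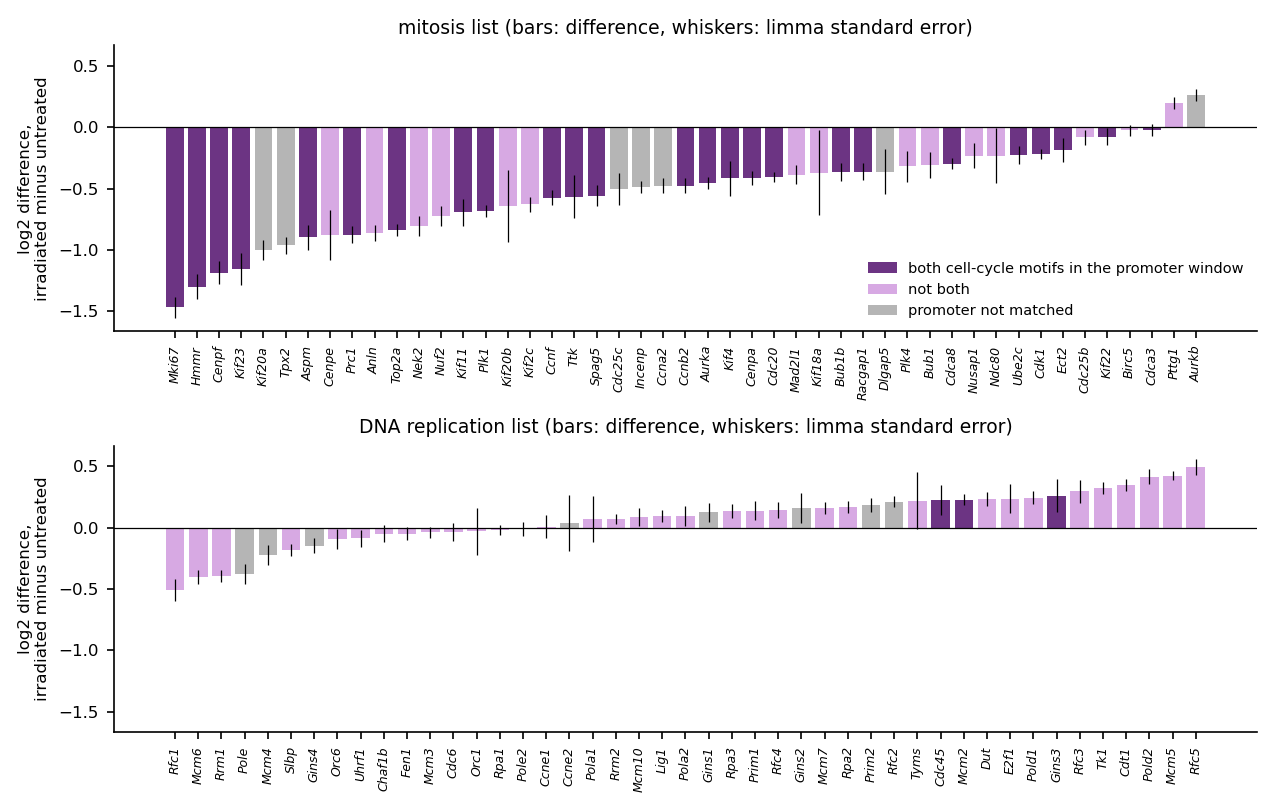
Log2 difference, irradiated minus untreated, with the limma standard error for each gene of the mitosis list (top) and the DNA replication list (bottom), in order of size. Dark bars mark genes whose promoter window holds both a CCAAT box and the cell-cycle homology region, pale bars genes without both, and grey bars genes with no matched promoter. Negative bars make up 45 of 47 genes above and 16 of 45 below.

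Late cell-cycle promoters carry a cell-cycle homology region, with the core TTTGAA, often beside CCAAT boxes. The windows of the 4 called genes are shown because all held both motifs. They are from RefSeq on GRCm38.p6, 5′ to 3′ in the direction of the gene, with CCAAT (or ATTGG on the other strand) and TTTGAA (or its reverse complement) in capitals. All are on the minus strand: Mki67 at chr7:135716330-135716629, Hmmr at chr11:40733388-40733687, Cenpf at chr1:189688037-189688336 and Kif23 at chr9:61946750-61947049.
Mki67: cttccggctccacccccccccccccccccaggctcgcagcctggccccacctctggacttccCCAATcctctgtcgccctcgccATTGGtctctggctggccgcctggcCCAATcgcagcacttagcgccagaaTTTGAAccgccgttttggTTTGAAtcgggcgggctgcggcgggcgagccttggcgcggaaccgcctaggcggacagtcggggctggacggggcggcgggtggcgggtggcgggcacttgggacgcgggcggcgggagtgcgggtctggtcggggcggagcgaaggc
Hmmr: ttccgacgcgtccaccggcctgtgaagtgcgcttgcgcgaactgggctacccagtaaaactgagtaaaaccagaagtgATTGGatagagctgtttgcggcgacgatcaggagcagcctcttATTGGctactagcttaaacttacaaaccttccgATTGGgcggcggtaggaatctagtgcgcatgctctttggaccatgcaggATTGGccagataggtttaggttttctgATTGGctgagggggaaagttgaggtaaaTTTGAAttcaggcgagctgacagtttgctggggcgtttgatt
Cenpf: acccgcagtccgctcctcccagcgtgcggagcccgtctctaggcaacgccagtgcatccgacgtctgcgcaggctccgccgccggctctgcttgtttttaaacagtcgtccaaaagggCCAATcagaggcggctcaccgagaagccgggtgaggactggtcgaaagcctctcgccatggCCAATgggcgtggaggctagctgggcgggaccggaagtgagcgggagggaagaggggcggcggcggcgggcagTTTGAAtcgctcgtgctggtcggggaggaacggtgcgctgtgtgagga
Kif23: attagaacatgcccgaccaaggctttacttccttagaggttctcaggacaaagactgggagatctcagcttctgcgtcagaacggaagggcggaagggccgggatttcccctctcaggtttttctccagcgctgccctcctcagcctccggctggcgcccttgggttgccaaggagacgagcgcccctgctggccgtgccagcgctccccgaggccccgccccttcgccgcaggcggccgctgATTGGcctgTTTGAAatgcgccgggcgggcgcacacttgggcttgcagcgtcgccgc
Both motifs were found in 62.5% of the 40 mitosis genes with a promoter, in 8.11% of the 37 replication genes and in 6.21% of the genes on the array with a promoter. TTTGAA alone was in 72.5%, 13.5% and 15.7%. Among genes of all kinds at or above the median signal, those with both motifs had a median difference of -0.06 (518 genes) and those without had -0.01 (8746 genes). Within the mitosis list the medians were -0.48 with both (25 genes) and -0.35 without (14 genes). These are descriptions of the windows, with no test. The cyclic AMP element TGACGTCA was in 1.92% and the E-box CACGTG in 5.77% of the 104 genes called higher with a promoter, against 2.92% and 10.2% of those on the array.

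Of 42 genes of damage signalling and repair, limma called none, with 6 higher and 15 lower at an unadjusted p under 0.05, against 13.1% and 14.6% of all genes. Atm, the kinase that senses double-strand breaks, differed by -0.60 and Chek2 by 0.48.

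Of 42 targets of TNF and NF-kB, limma called 4 lower and none higher in these receptor-deficient hosts, where 0.374% and 0.66% of all genes were. At the adjusted p alone 7 passed as lower and none as higher, where 6.53% and 4.92% of all genes did. At an unadjusted p under 0.05, 6 were higher and 9 lower, against 13.1% and 14.6% of all genes. The median was -0.05. Without one array 1 to 3 were called lower. The acute-phase protein Saa3 fell from 1698.1 and 1570.7 to 485.3 and 518.6 (-1.67 ± 0.08, adjusted p = 0.000334), and the call was kept whichever array was left out. The chemokine Ccl5 was at 912.9 and 906.8 against 462.1 and 360.6 (-1.13 ± 0.12), and the NF-kB subunit Relb at 568.3 and 599.8 against 262.7 and 278.8 (-1.07 ± 0.10). The Ccl5 call was kept only without irradiated replicate 1 (-1.30), and Relb was not called without untreated replicate 1 (-1.10) or 2 (-1.03). Lcn2, lipocalin 2, was called at -1.03 ± 0.23 (adjusted p = 0.0486) but lost whichever array was left out, with differences from -1.24 to -0.82. Nfkbia, the inhibitor IkB-alpha, was at 8532.4 and 9220.5 against 6493.3 and 6228.5, under 2-fold at -0.48. The leukaemia inhibitory factor gene Lif had the only positive difference above 1 in the list, from 79.7 and 30.2 to 128.4 and 148.0, or 1.21 ± 0.41 (adjusted p = 0.147). Removing probe sets under the median signal left 30 of the 42 genes, and Lif was then the only one called higher (1.21 ± 0.36, adjusted p = 0.0419). In that fit 4 were called lower.

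Each list in this paragraph held 1 call, where 0.66% of all genes were called higher and 0.374% lower. Of 37 TNF-family ligands and receptors, only Tnfrsf10b was called. Of 26 BCL2-family and caspase genes, only Bbc3 was called, and both also stand in the p53 lists. Among 38 interferon-response genes 1 was called, Parp14, at -1.09 ± 0.19, and not without untreated replicate 1 (-1.18) or 2 (-1.01) or irradiated replicate 1 (-0.89). The list median was -0.06, or 0.00 after quantile normalization. Tap1 was the only call among 16 antigen-presentation genes. It was made on the brightest of its 4 probe sets, and none of the 16 was called when all probe sets of a gene were averaged.

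Epidermal markers were the lowest of the 34 lists by median. In bulk tumour RNA, fewer cells of a type and less RNA per cell cannot be told apart. Of 28 keratinocyte and epidermal genes, 15 were called lower, against 0.374% of all genes, and none higher, with a median of -1.24. Their summed signal was 5478 and 5785 in the untreated and 1637 and 1682 in the irradiated arrays. Krt14, a keratin of the basal epidermis, was at 458.5 and 397.3 against 4.3 and 6.6 (-4.37 ± 0.29), read by a probe set that shares probes with other transcripts. The irradiated signals of Krt14 lie under the pseudocount of 16, so the size of the difference depends on it: it was -6.32 without a pseudocount and -2.82 with one of 64. With a pseudocount of 64 Krt6b, at -3.14, was the lower of the pair. Krt6b, a keratin of stressed epidermis, was at 959.9 and 1030.5 against 40.5 and 74.4 (-3.82 ± 0.23), and Krt1, of the upper epidermis, at 398.0 and 398.6 against 39.6 and 35.6. In each of these keratins both untreated arrays stood far above both irradiated arrays. Only 1 of the 28 genes, Krt6b, was called without untreated replicate 1 (-3.87), none without untreated replicate 2 (17 lower at an unadjusted p under 0.05), 6 without irradiated replicate 1 and 8 without irradiated replicate 2. Of the 15 genes, 14 stayed at least 2-fold lower in all of these.

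Skeletal muscle genes gave 3 of 30 called lower, against 0.374% of all genes, and 9 of the 30 had positive differences. Myh1, a fast myosin heavy chain, fell from 254.8 and 222.1 to 31.2 and 25.4 (-2.52 ± 0.28), and Acta1, skeletal actin, from 538.7 and 505.0 to 231.8 and 244.0 (-1.08 ± 0.11). Neither was called without untreated replicate 1 or 2 (Myh1 -2.43 and -2.61, Acta1 -1.04 and -1.13). Tnnt3 (-1.78 ± 0.34) was dim and lost its call whichever array was left out. The summed muscle signal was 6616 and 6472 in the untreated and 5509 and 6009 in the irradiated arrays. Of 17 erythroid genes, 3 were called higher, against 0.66% of all genes, and 4 had negative differences. Alas2, the erythroid enzyme that starts haem synthesis, was at 382.0 and 412.2 against 3425.6 and 3723.4, an 8.69-fold rise (3.12 ± 0.07) kept whichever array was left out. The anion exchanger of red cells, Slc4a1, rose from 157.8 and 168.8 to 439.3 and 510.5 (1.45 ± 0.14), though not without untreated replicate 1 (1.41) or 2 (1.49). Hbb-b2 was at 37.7 and 64 against 614.5 and 899.9 (3.54 ± 0.26), from a probe set that shares probes with other transcripts, while its other probe set gave -0.17 and was not called. The summed erythroid signal was 7718 and 7982 in the untreated and 11048 and 11589 in the irradiated arrays. Most of the rise in these sums was that of Alas2, with mean signals of 397.1 and 3574.5, so they do not show a rise across the list. The list median was 0.32, and at the adjusted p 4 genes passed as higher and 1 as lower (4.92% and 6.53% of all genes). The part of skin, muscle and blood RNA in the other differences was not tested, and the melanocyte genes gave no call.

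**Figure D5:**
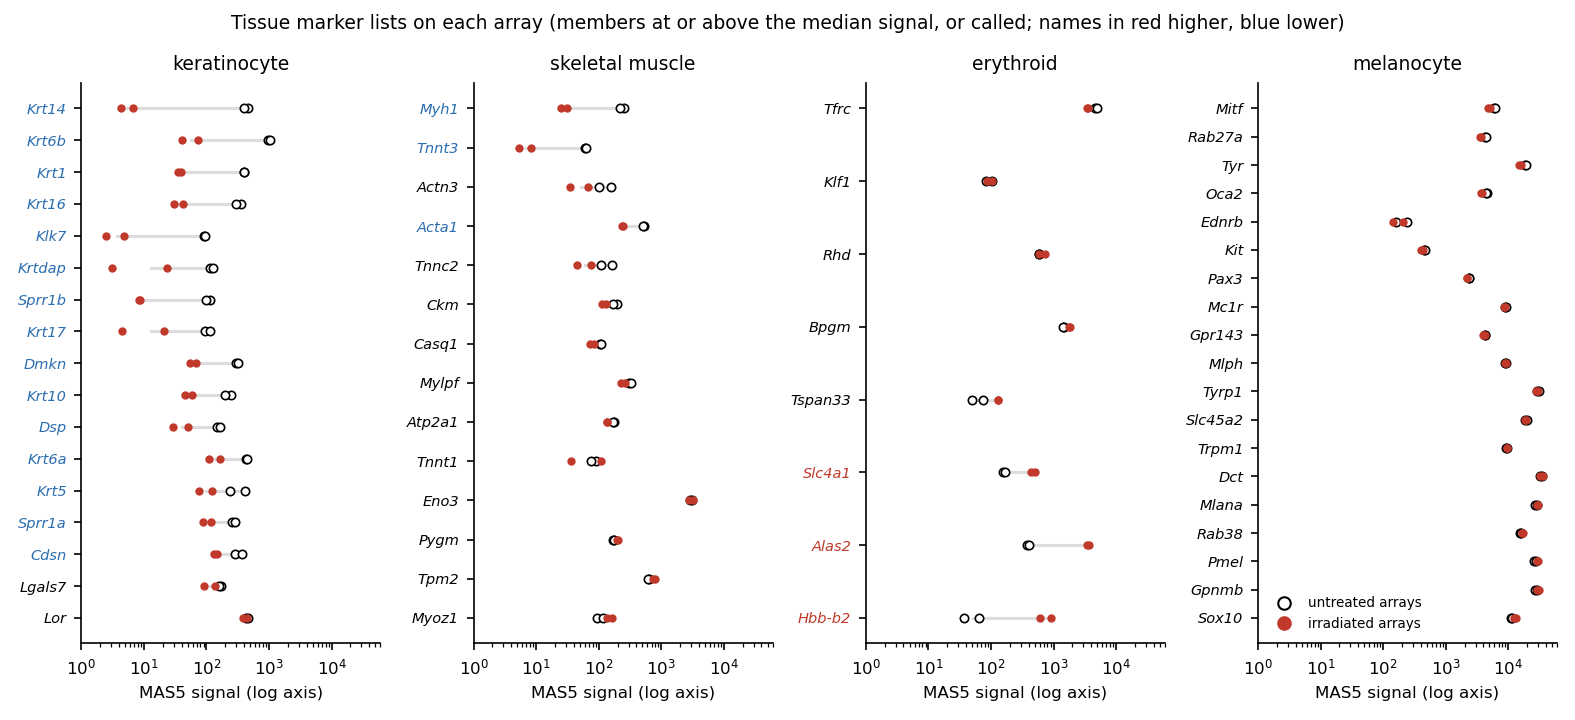
Signals on a log axis of keratinocyte, skeletal muscle, erythroid and melanocyte genes that reach the median signal or are called, with open circles for the 2 untreated and filled red circles for the 2 irradiated arrays. Names in blue are called lower and names in red called higher. The keratinocyte panel has 15 blue names, the erythroid panel 3 red names and the melanocyte panel none.

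Macrophage, fibroblast and endothelial genes had mostly negative differences, nearly all under 2-fold. Positive differences were more common among neutrophil (10 of 13), T, NK and B cell (15 of 24) and smooth muscle and pericyte genes (10 of 15). Of all 18193 genes, 9529 had a positive difference. Of 28 macrophage markers 1 was called lower and none higher, where 0.374% and 0.66% of all genes were. The call was Csf1r, the receptor for macrophage colony-stimulating factor, at 2480.9 and 2381.9 against 1188.9 and 1206.5 (-1.01 ± 0.05). It fell short of 2-fold without untreated replicate 1 (-0.98), after quantile normalization (-0.98) and with a pseudocount of 64 (-0.98). Of the 28, 23 had negative differences under each scaling, 12 passed the adjusted p as lower (6.53% of all genes) and none as higher, and the median was -0.38. The 12 became 1, 1, 6 and 5 without untreated replicate 1, untreated replicate 2, irradiated replicate 1 and irradiated replicate 2. The lysozyme Lyz2 differed by -0.75 and the complement gene C1qa by -0.61. The summed macrophage signal was 38607 and 37821 in the untreated and 27178 and 26593 in the irradiated arrays, beside the falls of Saa3, Ccl5 and Relb, and its part in them was not tested.

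Of 34 fibroblast and matrix genes, limma called none, with 2 higher and 25 lower at an unadjusted p under 0.05 (13.1% and 14.6% of all genes). The median was -0.49 and 14 passed the adjusted p as lower, where 6.53% of all genes did. Those 14 became 1, 1, 8 and 8 as each array was left out in the same order. Fn1, fibronectin, had mean signals of 4748 and 2799 (-0.76), Tnc, tenascin C, 1524 and 824 (-0.87), and Col1a2, a collagen I chain, 6475 and 4275 (-0.60). The matrix metalloproteinase Mmp2 had the opposite sign (0.57). Averaging all probe sets of a gene gave 1 call in this list, Pdgfrb, at -1.15 ± 0.19 (adjusted p = 0.0264). Of 27 endothelial genes limma called none, with 2 higher and 7 lower at an unadjusted p under 0.05, against the same background, and a median of -0.17. Lymphocyte markers were dim. Of 24 T, NK and B cell genes none was called, with 2 higher and 1 lower at an unadjusted p under 0.05, and Cd3e had mean signals of 28 and 50. The summed signal of 13 neutrophil genes was 1613 and 1710 against 1751 and 1751, and the 1 call was Lcn2.

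The remaining lists held few calls, where 0.66% of all genes were called higher and 0.374% lower. The adipocyte list had Car3 lower (-1.68, lost whichever array was left out), the angiogenic list Nrp2 lower (by 2-fold, kept only without irradiated replicate 2, at -1.21, with its other probe sets at -0.63 and -0.66 and not called) and the glucocorticoid list Lcn2 lower. In 7 lists limma called no gene. At an unadjusted p under 0.05, which 13.1% of all genes passed as higher and 14.6% as lower, hypoxia and glycolysis genes were 14 higher and 6 lower of 31, circadian clock genes 3 and 0 of 18, and TGF-beta targets 2 and 9 of 25. Cytosolic ribosomal protein genes were 14 and 1 of 28 and oxidative phosphorylation genes 23 and 2 of 41, with medians of 0.12 and 0.13 that became 0.04 and 0.02 after quantile normalization. Smooth muscle and pericyte genes were 4 and 1 of 15, and mast cell genes 0 and 0 of 10. The TGF-beta target Inhba was called lower after quantile normalization (-1.635 ± 0.352, adjusted p = 0.0463) and after median centring (-1.62 ± 0.369, adjusted p = 0.0473).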

How the data were processed

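Whole B16F1 tumours were measured on Affymetrix Mouse Genome 430 2.0 arrays. The deposited values are MAS5 signal intensities on a linear scale, per the submitters' processing notes, which give no version. The 2% trimmed mean was 500.00 on each of the 4 arrays, so the authors had scaled them to a common target. The table held 45101 probe sets, of which 64 were controls. From these intensities log2(signal + 16) was computed and fitted with limma 3.58.1 in R 4.3.3 (lmFit, eBayes with a trend), 2 arrays against 2, with 2 residual degrees of freedom and Benjamini-Hochberg adjustment over 45037 probe sets. The 4 wild-type arrays were not used. The platform annotation named 1 gene for 34945 probe sets, several for 932 and none for 9160. Of 975 listed symbols, 881 matched a gene.

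The members and gene lists were chosen with earlier results of these data known. Named genes were the receptor, Tnf, Cdkn1a, Mdm2 and Ccng1 genes, the 15 highest and 15 lowest called genes, up to 8 called members of each list (or up to 3 bright members where fewer than 2 were called), and cell type markers. Other list members named in the text, with their values, were chosen after those values were seen. Each promoter motif was searched on both strands. Tested on simulated data with 45037 probe sets, the calls recovered 41% of 2-fold and 94% of 4-fold changes and made 8 false calls. The changed probe sets were drawn only from those at or above the median signal. The simulated noise depended on the mean signal alone, a setting that suits a prior following the signal, and held no other difference between pools. These rates therefore need not hold for the real calls. The number of arrays limits the precision. Alternatives were another pseudocount or scaling, a signal filter, a constant prior, other call limits, averaged probe sets, a replicate block and leaving out each array, where the lone array was assumed to vary like the other pool's.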

Additional observations from a re-analysis of the deposited data

How the results depend on the processing

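The 227 higher and 168 lower probe sets became 236 and 199 without a pseudocount, 223 and 152 after quantile normalization, 212 and 195 after median centring, and 198 and 164 with probe sets under the median signal removed. A pseudocount of 64 gave 141 and 72, a filter at the 75th percentile 90 and 25, a 4-fold limit 41 and 25, and the adjusted p alone 1451 and 1985. Without a trend in the limma prior 0 and 0 were called, with 7250 at an unadjusted p under 0.05; the cause was not tested. Leaving out each array gave 78 to 115 higher and 10 to 85 lower. A replicate block gave 198 and 150; the duplicates share only a number (their deviations correlated at -0.0097 over probe sets), so the block is no pairing. None of the 68 called genes among those chosen by the naming rule changed sign under any alternative run, while 25 of the 72 not called did under at least 1. Called genes had to differ at least 2-fold on these same arrays, so a change of sign was unlikely from the start. The contrast is therefore no test of the calls. Of the 188 called genes, 52 were called in all 4 fits without one array and 81 in none, and of the 68 lower genes 5 were called in all 4. One pool per group leaves the spread between animals unmeasured, and MAS5 signals near the pseudocount of 16 carry little order.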

Other observations

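Of the 120 genes called higher, 47 were called in every fit that left out one array, and several of them stand in no list used above. The following were chosen from these after their values were seen. Rbm38, an RNA-binding protein known as a p53 target, went from 934.2 and 908.0 to 2507.4 and 2288.4 (1.36 ± 0.07). Ada, the purine enzyme adenosine deaminase, was at 392.1 and 387.8 against 1043.1 and 935.4 (1.31 ± 0.09). Gne, the enzyme that starts sialic acid synthesis, rose from 954.4 and 977.0 to 2225.2 and 2010.9 (1.12 ± 0.07), while its other probe set gave 0.78 and was not called. In all these genes both irradiated arrays lay above both untreated arrays, which their choice among called genes favours. Hpcal1, a neuronal calcium sensor protein, rose by 1.43 ± 0.05, Tent5c, a poly(A) polymerase, by 2.24 ± 0.10, and Zfp385a, a zinc finger protein that binds p53, by 2.13 ± 0.16. Zfpm1, the GATA1 cofactor FOG1 of red cell development, rose by 1.18 ± 0.08, though its other probe set gave 0.55 and was not called.

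Only 5 of the 68 lower genes were called in every such fit: Mki67, Saa3, Cp, L1cam and the predicted gene Gm26588. Cp, which encodes the copper-carrying ferroxidase ceruloplasmin, was at 1114.6 and 1115.8 in the untreated arrays and at 268.3 and 244.8 in the irradiated arrays, a fall of 2.05 ± 0.09 on the log2 scale. L1cam, a cell adhesion molecule, went from 1110.5 and 1243.7 to 500.4 and 485.9 (-1.23 ± 0.08). The groups were far apart for both genes, which their choice among called genes favours. The macrophage chitinase-like protein Chil3 was at 213.9 and 194.6 against 20.6 and 35.5 (-2.34 ± 0.32), but was not called without untreated replicate 1 (-2.28) or 2 (-2.40).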
